A study of Mus musculus with 6 samples.

Results

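Cytokine receptors are the surface proteins through which blood cells read interleukins, interferons and related hormones. The interleukin, interferon and related cytokine receptor genes examined here numbered 35 of the 21900 protein-coding genes in the annotation. They were taken as a list of gene symbols, with every open-chromatin region in or within 20 kb of any of them, which gave 241 of 75961 regions. Of these, 24 lay near 2 receptor genes and were counted once in totals. The assay was ATAC-seq, which uses a transposase to cut and tag accessible DNA, in lineage-depleted bone marrow of C57BL/6 mice, a fraction that holds haematopoietic stem and progenitor cells together with other cells that the depletion leaves. Wild-type (UTX_WT) and knockout (UTX_KO, Utx-/-) samples numbered 3 each. Utx, also named Kdm6a, encodes a histone demethylase. The labels give neither the ages and sexes of the mice nor how the deletion was made, and they do not say whether samples came from separate animals, so p-values measure only the spread between these samples.

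Most of these receptors belong to families that share a signalling chain. The common gamma chain serves several lymphocyte interleukins, the common beta chain serves eosinophil and progenitor cytokines, and gp130 and its relatives serve interleukin-6, leukaemia inhibitory factor and the interleukin-12 group. Ligand binding brings receptor chains together and activates JAK kinases, which phosphorylate STAT transcription factors, and SOCS proteins switch the signal off. Receptors of the interleukin-1, interleukin-18 and interleukin-17 type signal by other adaptors.

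The peak lists held 57405, 57917 and 57622 peaks in wild-type samples 1, 2 and 3 and 45260, 50249 and 44576 in knockout samples 1, 2 and 3. Sequencing depth is unknown, so a shallower library and less open chromatin cannot be told apart where a peak is missing. In a bulk sample, fewer cells of a type and less open chromatin per cell cannot be told apart. A region is called lost where all 3 wild-type samples and 0 knockout samples had a peak, and gained in the opposite case. It is called partly lost or partly gained where the 2 genotypes differed by at least 2 samples in that direction without meeting this rule. All 6 stem and progenitor marker genes had peaks in all 6 samples, with 46 to 50 peaks in wild type and 34 to 38 in knockout. Peaks near Kdm6a numbered 4, 5 and 5 in wild type and 6, 6 and 5 in knockout, and they do not check the deletion, because its position is not given. A two-sided exact permutation test of 3 samples against 3 cannot give p below 0.1, the value reached by every measure whose groups do not overlap in the direction stated, so no single difference here could pass the usual threshold.

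The promoters below carried the clearest differences in accessibility. They are the 250 bases before an annotated start site (RefSeq, GRCm38.p6), 5′ to 3′ on the gene's strand, in lower case with matches to the searched motifs in capitals. The Il2ra promoter was open only in knockout samples and the second Il1r1 promoter only in wild-type samples. The Il5ra and Il6ra promoters were open in all 6 samples with start-site regions at least 2 times or at most 0.6 times as wide in knockout, and were added after their widths were seen.
Il2ra, chr2:11642542-11642791, plus strand: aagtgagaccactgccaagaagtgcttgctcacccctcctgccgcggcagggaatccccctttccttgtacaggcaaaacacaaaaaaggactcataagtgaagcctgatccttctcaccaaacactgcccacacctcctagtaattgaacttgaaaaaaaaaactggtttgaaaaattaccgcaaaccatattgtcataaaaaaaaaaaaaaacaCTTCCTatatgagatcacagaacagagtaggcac
Il1r1 second start, chr1:40266336-40266585, plus strand: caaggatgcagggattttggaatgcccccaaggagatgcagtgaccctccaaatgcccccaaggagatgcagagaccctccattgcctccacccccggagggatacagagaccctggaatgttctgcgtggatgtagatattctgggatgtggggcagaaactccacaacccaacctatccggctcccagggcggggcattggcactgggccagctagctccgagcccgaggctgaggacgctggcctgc
Il5ra, chr6:106749038-106749287, minus strand: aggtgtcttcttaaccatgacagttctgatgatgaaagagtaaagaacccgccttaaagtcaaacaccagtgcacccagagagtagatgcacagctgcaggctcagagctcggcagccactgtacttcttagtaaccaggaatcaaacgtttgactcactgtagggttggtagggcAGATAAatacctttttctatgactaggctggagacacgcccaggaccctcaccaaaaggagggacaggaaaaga
Il6ra, chr3:89913197-89913446, minus strand: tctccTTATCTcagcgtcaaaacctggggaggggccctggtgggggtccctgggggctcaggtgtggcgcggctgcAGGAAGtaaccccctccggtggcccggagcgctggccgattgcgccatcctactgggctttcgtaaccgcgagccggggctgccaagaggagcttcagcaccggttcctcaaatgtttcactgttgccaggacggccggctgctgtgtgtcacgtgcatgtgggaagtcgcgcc
Motifs were searched on both strands. For factors of the GATA family they were AGATAA and also TGATAA, for the ETS family CCGGAA and also AGGAAG, and for STAT proteins TTCNNNGAA. No 2 matches overlapped in these 4 sequences. The Il2ra promoter held 1 AGGAAG match on its reverse strand, starting at base -34 from the start site. The Il5ra promoter held 1 AGATAA match at base -74. The Il6ra promoter held AGATAA on its reverse strand at base -245 and AGGAAG at base -174. The second Il1r1 promoter held 0 matches. Among 21263 such windows of protein-coding genes, 28.5% held AGGAAG, 8.81% AGATAA, 6.94% TGATAA, 15% CCGGAA and 6.58% TTCNNNGAA. The 38 receptor windows held AGGAAG in 19, CCGGAA in 4, TTCNNNGAA in 5, AGATAA in 3 and TGATAA in 3. A match describes letters and is not a binding site.

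As a whole, the receptor genes kept a balance of lost and gained regions close to that of other genes. The gp130 and hormone receptor families, each through few of their genes, lay on opposite sides of it. Of the 241 regions, 24 (9.96%) were lost, where 10.7% of 62098 regions near any protein-coding gene were lost, and 11 (4.56%) were gained, where 4.05% were. A further 15 were partly lost (6.22% against 11%) and 9 partly gained (3.73% against 3.62%), and 103 (42.7% against 42.9%) were open in all 6 samples. Among regions found in every wild-type sample, 15.8% near receptor genes and 17% near protein-coding genes were lost. The 9 receptors of the gp130 and interleukin-12 type had 10 of 51 regions lost (19.6%) and 0 gained. The lost ones were 4 near Il12rb2 and 2 each near Il12rb1, Il27ra and Il6ra. With only the widest 44576 peaks of each list, 3 near Il12rb2, 1 near Il12rb1 and 0 near Il27ra and Il6ra were lost. Near the 2 hormone receptors 3 of 6 regions were gained, all near Prlr, and 0 lost. Near the 4 interleukin-1 and interleukin-18 receptor genes 4 of 28 were lost and 1 gained. The common gamma chain group, which here also holds Crlf2 and Il13ra1 whose receptors lack that chain, had 4 lost and 3 gained of 58. The interferon and interleukin-10 receptor group had 4 lost and 3 gained of 66. These shares describe regions, which are not replicates of a genotype.

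**Figure D1:**
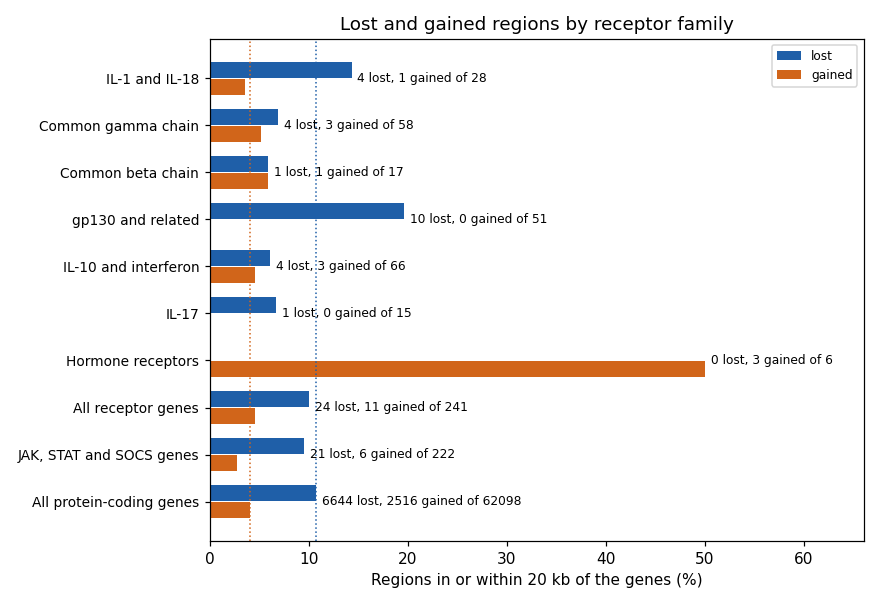
Percentage of regions in or within 20 kb of each receptor family that were lost (blue) or gained (orange), with the counts beside the bars; dotted lines mark the 10.7% lost and 4.05% gained near all protein-coding genes. The gp130 and related bar reaches 19.6% lost, and the hormone receptor bar rests on only 6 regions.

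Counted per sample, 187, 184 and 184 peaks lay near the receptor genes in wild-type samples 1 to 3 and 161, 170 and 147 in knockout samples 1 to 3. The groups did not overlap, with means of 185 ± 1.73 and 159 ± 11.6 (SD, n = 3 each), a difference of -13.9% where the whole lists differed by -19.0%. As a share of each list, the receptor genes held 0.326%, 0.318% and 0.319% of wild-type peaks and 0.356%, 0.338% and 0.330% of knockout peaks. This small excess in knockout depended on how lists of unequal length were treated. When only the widest 44576 peaks of each list were used, receptor genes held 151 peaks on average in wild type and 152 in knockout. With the widest 50% of each list the difference in share was -0.00418 percentage points (exact permutation p = 0.8).

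**Figure D2:**
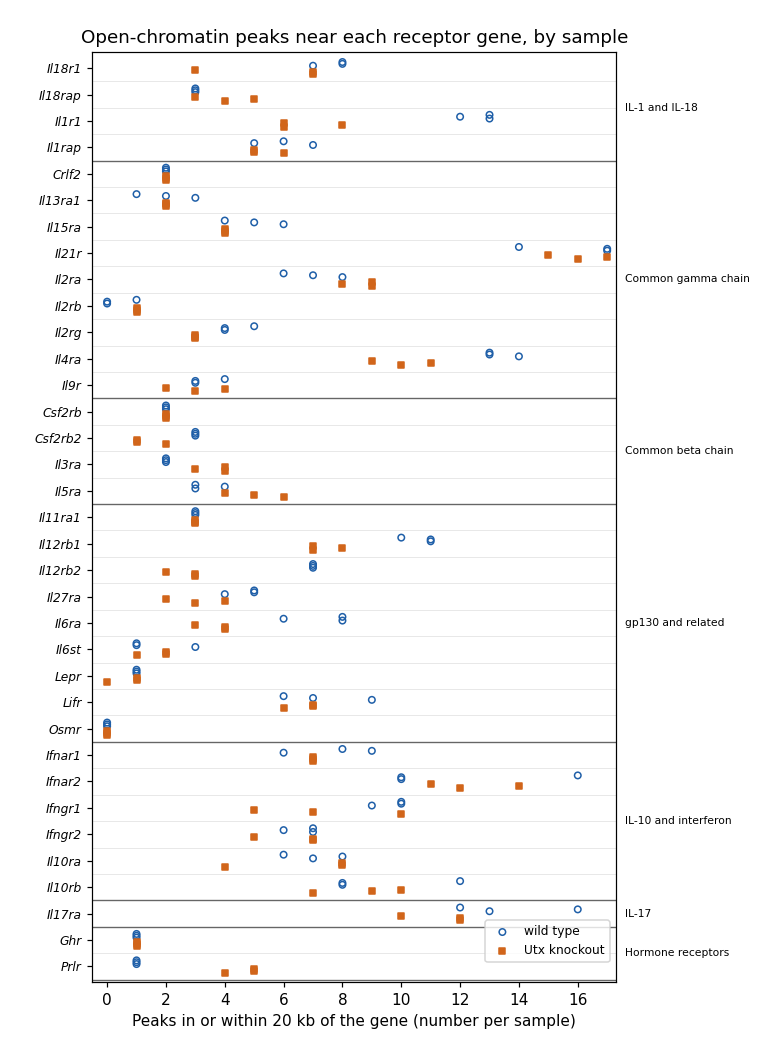
Number of peaks in or within 20 kb of each of the 35 receptor genes in each sample (x axis), with wild-type samples as open blue circles and knockout samples as orange squares, grouped by family. Il1r1, Il12rb2, Il12rb1, Il4ra and Il6ra have every knockout sample below every wild-type sample, and Prlr and Il3ra every knockout sample above.

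Among single genes, 7 of the 34 with any peak had fewer peaks in every knockout sample (20.6%, where 27.6% of 16985 protein-coding genes did) and 2 had more (5.88%, where 4.24% did). Lost regions occurred near 15 of the 34 (44.1%, where 36.3% of genes had one) and gained regions near 9 (26.5%, where 13.9% did). Both kinds occurred near 4, namely Il21r, Ifnar1, Ifngr2 and Il10rb. Neither occurred near 15 of the 35 genes. These shares per gene take no account of the number of regions, which was 241 for the 34 genes and 62098 for the 16985. Per region, the lost and gained shares lay close to those near all protein-coding genes, as given above. The gained region near both Ifnar2 and Il10rb counts for each. With lists of equal length, 3 regions near Il1r1 and 3 near Il12rb2 were lost, 1 each near Il4ra, Il12rb1, Il2rg, Il18r1, Ifngr1 and Il17ra, and 0 near Il6ra, Il27ra, Csf2rb2, Il21r, Ifnar1, Ifngr2 and Il10rb.

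**Figure D3:**
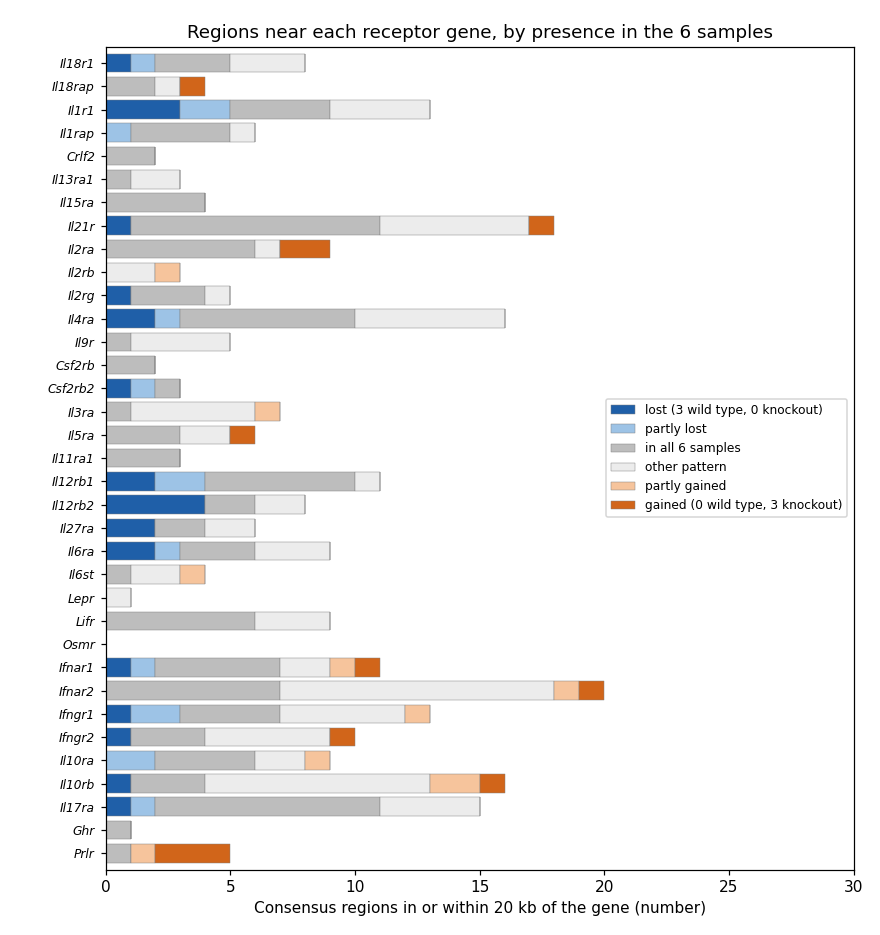
Number of consensus regions near each receptor gene (x axis), split by presence in the samples, from lost (dark blue) to gained (dark orange). Il12rb2 and Il1r1 carry the most lost regions, with 4 and 3, and Prlr the most gained, with 3, while Osmr has no region.

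In the common gamma chain group, the start site of Il2ra was open in all 3 knockout samples and in 0 wild-type samples. Il2ra encodes CD25, the chain that gives the interleukin-2 receptor its high affinity, and is displayed by activated and regulatory T cells and by developing B cells. It lies on chromosome 2 at 11642792 to 11693194 (all positions are in mm10). A gained region at 11641403 to 11642974 covered its start site. Peaks there were 994, 1333 and 1572 bp wide in knockout samples 1, 2 and 3, the widest gained region of the list, and 0 of 3 wild-type samples had a peak. Of promoter windows of protein-coding genes, 0.611% were gained in this way, and among 38 receptor windows Il2ra was the only one. A second gained region lay 19273 bp upstream at 11623101 to 11623519, with peaks of 221, 396 and 419 bp. At least 2 gained regions were found near 3.79% of protein-coding genes, and among the receptor genes only near Il2ra and Prlr.

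Of the 6 regions near Il2ra that were open in all samples, 3 were wider in every knockout sample, 1 was narrower and 2 overlapped. The one 5065 bp upstream of the gene (11635509 to 11637727) had 672, 688 and 671 bp of peak in wild type and 1565, 2217 and 2205 bp in knockout, 2.95 times as much. A region inside the gene at 11653282 to 11653982 had 222, 317 and 295 bp against 401, 699 and 651 bp, 2.10 times as much. Another inside it at 11661990 to 11663350 had 781, 909 and 787 bp against 1204, 1361 and 1233 bp, 1.53 times as much. In these 3 every knockout sample exceeded every wild-type sample. The other region inside the gene, at 11663950 to 11664672, had 599, 640 and 720 bp against 606, 643 and 630 bp, which overlap. Peak numbers near the gene, 8, 7 and 6 in wild type and 9, 8 and 9 in knockout, overlapped. Downstream, a region inside the neighbouring Il15ra, which encodes the alpha chain for interleukin-15, had 1085, 1219 and 2129 bp in wild type and 385, 514 and 554 bp in knockout, 0.328 times as much. A second region inside Il15ra, at 11705129 to 11706516, had 1388, 852 and 1350 bp against 736, 972 and 746 bp, which overlap.

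Peaks near the 6 B cell marker genes numbered 27 to 34 in wild type and 45 to 54 in knockout, and all 6 markers had peaks in every sample. Singly, only Pax5 and Ebf1 of these had groups that did not overlap. Peaks near the 6 T and NK cell markers numbered 16 to 18 in both genotypes, with Cd8a at 0 and Ncr1 with a peak in 1 sample. The part of these cells in the result at Il2ra was not tested.

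Il21r and Il4ra, neighbours on chromosome 7, had 18 and 16 regions. Il21r encodes the interleukin-21 receptor of B, T and NK cells. Its peaks numbered 17, 17 and 14 in wild type and 16, 17 and 15 in knockout, with 1 region gained (125605473 to 125606256, inside the gene and 2044 bp from the start site) and 1 lost (125618008 to 125618363). Its start region was 664, 501 and 494 bp wide in wild type and 734, 816 and 853 bp in knockout. A region 961 bp past the gene was 1.58 times as wide in knockout, with 751, 872 and 900 bp against 1249, 1396 and 1348 bp. Wild-type and knockout widths did not overlap at either. Differences in the other direction lay upstream, where 3 regions were narrower in every knockout sample, at 0.705, 0.709 and 0.760 times the wild-type width. Of the 10 regions near Il21r open in all samples, 4 were wider in every knockout sample, 3 narrower and 3 overlapped.

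Il4ra encodes the signalling chain for interleukin-4 and interleukin-13. It had 14, 13 and 13 peaks in wild type and 10, 11 and 9 in knockout, without overlap. Of its regions 2 were lost, both inside the gene at 125575809 to 125576124 and 125577512 to 125578021. The region at its start was wider in every knockout sample, with means of 800 ± 16.5 and 972 ± 128 bp (SD, n = 3 each). A region inside the gene at 125555275 to 125556125 was narrower in every knockout sample, at 772 ± 65.8 and 624 ± 88.5 bp.

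Il2rg, on the X chromosome, encodes the common gamma chain itself. It had 4, 4 and 5 peaks in wild type and 3 in each knockout sample, and its promoter was open in all 6 samples. Its 1 lost region (101287474 to 101288010) lay 19219 bp away, inside Med12. Il2rb, the shared beta chain for interleukins 2 and 15, had 0, 0 and 1 peaks in wild type and 1 in each knockout sample, at different places. Knockout samples 2 and 3 shared a partly gained region inside the gene (78510178 to 78510496), and knockout sample 1 had a peak elsewhere inside it. The wild-type peak lay 16475 bp outside Il2rb. Crlf2, the receptor chain for thymic stromal lymphopoietin, had 2 peaks in every sample. Il15ra had 6, 5 and 4 peaks against 4 in each knockout sample, Il9r 3, 3 and 4 against 3, 4 and 2, and Il13ra1 3, 2 and 1 against 2 in each, and none of these 3 had a lost or gained region.

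**Figure D4:**
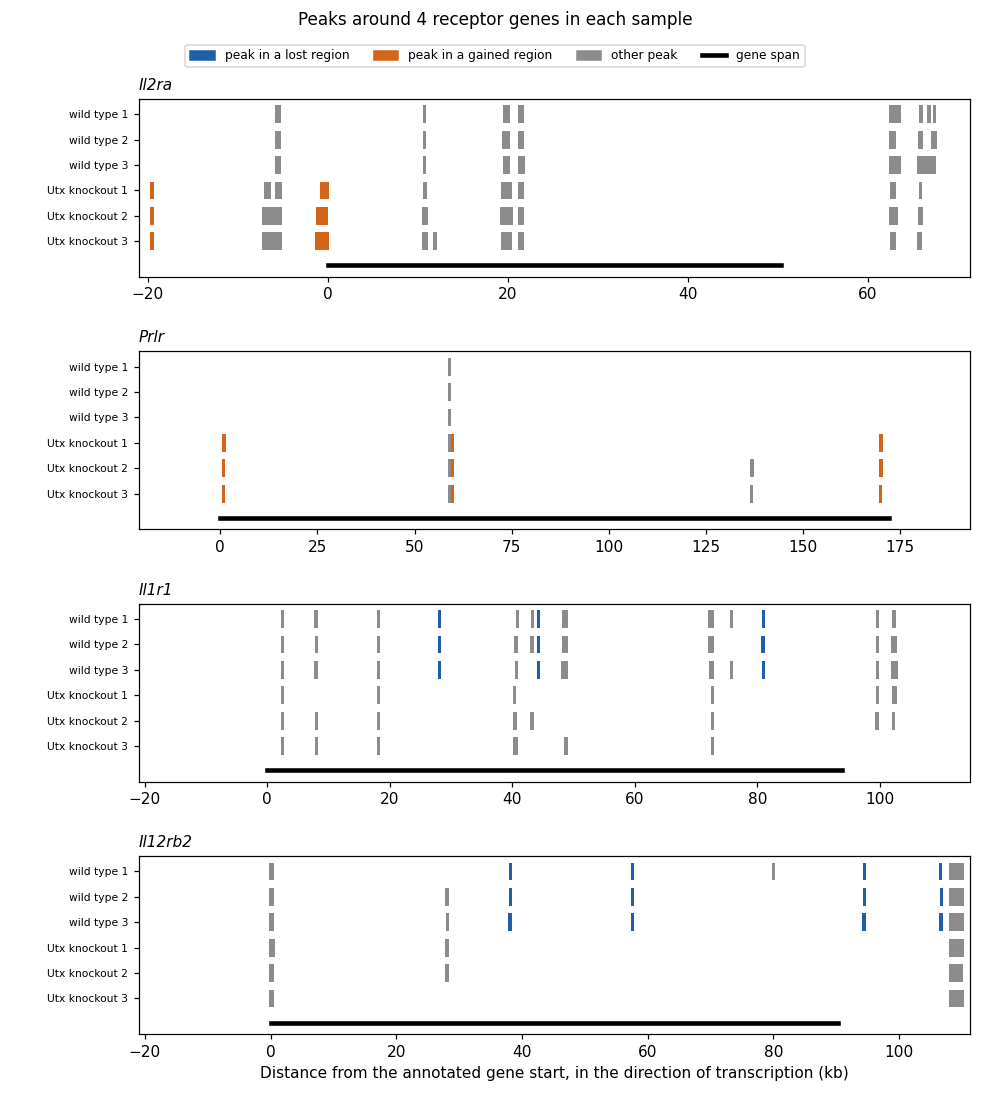
Peaks in each sample around Il2ra, Prlr, Il1r1 and Il12rb2, by distance in kb from the annotated gene start in the direction of transcription, with the gene span as a black line; very narrow peaks are drawn at a minimum width. Gained regions (orange) occur only in the 3 knockout rows of Il2ra and Prlr, and lost regions (blue) only in the 3 wild-type rows of Il1r1 and Il12rb2.

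In the common beta chain group, Il5ra had gained and wider regions in knockout, Il3ra had more peaks and Csf2rb2 fewer. Il5ra, the receptor chain for interleukin-5 on eosinophils and some B cells, had 3, 4 and 3 peaks in wild type and 6, 5 and 4 in knockout, which overlap. A region inside it on chromosome 6 (106725739 to 106726337) was gained, with peaks of 502, 550 and 222 bp. The region over its start site, whose promoter is printed above, had 453, 389 and 409 bp of peak in wild type and 672, 962 and 972 bp in knockout, 2.08 times as much. The next region, 1169 bp upstream, had 225, 240 and 306 bp against 378, 511 and 576 bp, 1.90 times as much. Wild type and knockout did not overlap at either. A region 19776 bp upstream of Il5ra had 853, 874 and 1015 bp against 765, 898 and 950 bp, which overlap. Il3ra, which binds interleukin-3, had 2 peaks in each wild-type sample and 4, 3 and 4 in knockout, with 0 lost, 0 gained and 1 partly gained of 7 regions. Its start region was 1.13 times as wide in knockout. Regions inside it starting at 14351555, 14353479 and 14354334 each had a peak in only 1 knockout sample.

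The paired genes Csf2rb and Csf2rb2 encode the common beta chain and its mouse-specific relative for interleukin-3. Csf2rb had 2 peaks in every sample. Csf2rb2 had 3 peaks in each wild-type sample and 2, 1 and 1 in knockout, with 1 region lost on chromosome 15 at 78278405 to 78278724, outside the gene, and 1 partly lost. Its annotated promoter window had no peak in any sample. Mapping of reads between near-identical copies is not described in the sources used here, so single values of this pair are uncertain.

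The gp130 and interleukin-12 group had 10 lost regions, of which 4 lay near Il12rb2. Il12rb2 encodes the signalling chain of the interleukin-12 receptor on T and NK cells. It had 7 peaks in each wild-type sample and 3, 3 and 2 in knockout. Of 8 regions on chromosome 6, 4 were lost, the most of the 34 receptor genes with any peak. At least 4 were lost near 2.5% of protein-coding genes, and 1 gene in 34 is close to that share. The pair inside the gene lay at 67318544 to 67318907 and 67337836 to 67338450, with wild-type peaks of 327 ± 32.7 and 530 ± 74.0 bp (SD, n = 3). The pair beyond its far end, at 67269243 to 67269846 and 67281672 to 67282066, lay inside the neighbouring gene Serbp1. A further lost region lay 20583 bp away, just past the 20 kb limit. The promoter of Il12rb2 was open in all 6 samples. The widest 50% of peaks left 1 lost region near Il12rb2 and 3 near Il1r1.

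Il12rb1, the partner chain shared by interleukin-12 and interleukin-23, had 11, 11 and 10 peaks in wild type and 7, 8 and 7 in knockout. It had 2 lost and 2 partly lost of 11 regions on chromosome 8. One lost region was inside the gene (70811331 to 70811666) and the other (70843313 to 70843873) lay 19771 bp away inside Kcnn1, the last one within the 20 kb limit. Il27ra, the interleukin-27 receptor, had 4, 5 and 5 peaks against 3, 4 and 2, which overlap, and 2 of 6 regions were lost, at 84052701 to 84053093 and 84060273 to 84060641, 10101 and 17673 bp outside it.

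Il6ra encodes the chain that binds interleukin-6. It had 8, 6 and 8 peaks in wild type and 4, 4 and 3 in knockout, without overlap. Lost regions lay inside the gene on chromosome 3, at 89872254 to 89872566 and 89887598 to 89887954. The region over its start site, printed above, stayed open in all samples but had 1422, 1410 and 1232 bp of peak in wild type and 861, 659 and 575 bp in knockout, 0.516 times as much. Il6st, which encodes gp130 itself, had 3, 1 and 1 peaks against 1, 2 and 2. The rest of this group showed no lost or gained region. Il11ra1 had 3 peaks in every sample, Lifr 9, 7 and 6 against 6, 7 and 7, Lepr 1 in each wild-type sample against 0, 1 and 1, and Osmr, the oncostatin M receptor, 0 in all 6 samples.

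Il1r1, the receptor for interleukin-1, had the largest difference in mean peak number of the 35 genes in the full lists. It lies on chromosome 1 at 40222480 to 40316201 and had 13, 12 and 13 peaks in wild type and 6, 8 and 6 in knockout, or 12.7 ± 0.577 and 6.67 ± 1.15 (SD, n = 3 each). Of 13 regions, 3 were lost and 2 partly lost, all inside the gene. The lost region at 40266444 to 40266976 covered the second annotated start site, printed above, with peaks of 309, 408 and 527 bp in wild type. Of promoter windows of protein-coding genes, 0.837% were lost, and this was the only one among the receptor windows. The first start site was open in all 6 samples, and its region was narrower in every knockout sample, at 437 ± 20.4 against 300.3 ± 55.1 bp. A region at 40294409 to 40295429 had 962, 1021 and 890 bp of peak in wild type and 379, 528 and 522 bp in knockout. Another inside the gene, at 40240444 to 40240874, was wider in every knockout sample, with 335, 317 and 232 bp against 340, 377 and 385 bp. At 40262536 to 40263438 widths of 219, 476 and 571 bp against 532, 779 and 771 bp overlapped. The other lost regions were at 40250447 to 40250779 and 40303173 to 40303667.

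Il1rap, the accessory chain of the same receptor, had 7, 5 and 6 peaks against 6, 5 and 5. Il18r1, which binds interleukin-18, had 7, 8 and 8 against 7, 7 and 3, with 1 region lost at 40469946 to 40470306. Its 3 promoter windows were open in 3 or 4 of the 6 samples, without separation by genotype. Its partner Il18rap had 3 peaks in each wild-type sample and 4, 5 and 3 in knockout, with 1 region gained inside the gene at 40524249 to 40524662. Only Il1r1 of these 4 had groups that did not overlap.

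Prlr, the prolactin receptor, had 3 gained regions, or 2 with lists of equal length and 1 with the widest 50% of peaks. It lies on chromosome 15 at 10177238 to 10349190 and had 1 peak in each wild-type sample and 4, 5 and 5 in knockout. Of 5 regions 3 were gained, 1 was partly gained and 1 was open in all 6 samples. At least 3 gained regions were found near 1.23% of protein-coding genes, and among the receptor genes only near Prlr. The first gained region lay 419 bp inside the gene from its first start site (10177657 to 10178480) with peaks of 385, 801 and 824 bp. The others were at 10236873 to 10237156 (279, 212 and 284 bp) and 10346807 to 10347624 (624, 818 and 706 bp). None of its 3 annotated promoter windows overlapped a peak in any sample. Ghr, the growth hormone receptor, had 1 peak in every sample, at a start site.

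The interferon receptor genes had peak numbers that overlapped between genotypes, with lost and gained regions among them. Ifnar1 and Ifnar2 encode the type I interferon receptor, Ifngr1 and Ifngr2 the interferon gamma receptor, and all 4 promoters were open in all 6 samples. Ifnar1 had 6, 9 and 8 peaks against 7 in each knockout sample, Ifnar2 10, 10 and 16 against 12, 14 and 11, Ifngr1 9, 10 and 10 against 10, 7 and 5, and Ifngr2 7, 6 and 7 against 7, 7 and 5. Ifnar1 and Ifngr2 each had 1 lost and 1 gained region, Ifnar2 1 gained region (chromosome 16, 91388372 to 91388943), which is also within 20 kb of Il10rb, and Ifngr1 1 lost region. The lost region of Ifnar1 (91517007 to 91517562) lay 6484 bp outside it and that of Ifngr2 (91537057 to 91537528) 9531 bp outside it. Their gained regions lay 8866 bp outside Ifnar1 (91475841 to 91476166) and inside Ifngr2 (91561109 to 91561415).

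At Ifnar2 and Ifngr1, regions open in all samples were narrower in every knockout sample, and near Ifngr2 a region was wider. A region 19059 bp from Ifnar2 had 1487, 1525 and 1699 bp of peak in wild type and 330, 685 and 250 bp in knockout, 0.269 times as much and the lowest ratio among the 103 regions open in all samples. The start region of Ifnar2 had 2118, 2167 and 1869 bp against 1599, 1538 and 1611 bp, 0.772 times as much. The wider region, 8078 bp from Ifngr2, had 816, 800 and 755 bp against 854, 986 and 923 bp, 1.17 times as much. Next to Ifngr1, a lost region 5225 bp upstream (chromosome 10, 19585790 to 19586724, 790 ± 151 bp in wild type) adjoined a shared one at 19584050 to 19585173 with 493, 1087 and 764 bp in wild type and 336, 315 and 248 bp in knockout. Il10ra and Il10rb encode the interleukin-10 receptor. Il10ra had 7, 8 and 6 peaks against 4, 8 and 8 with 0 lost and 0 gained of 9 regions, and Il10rb had 8, 8 and 12 against 7, 9 and 10 with 1 lost (91438093 to 91438439), 12259 bp outside it, and 1 gained. Il17ra, the interleukin-17 receptor, had 13, 16 and 12 peaks against 12, 12 and 10 with 1 of 15 regions lost on chromosome 6 (120484977 to 120485441), 1246 bp outside it.

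**Figure D5:**
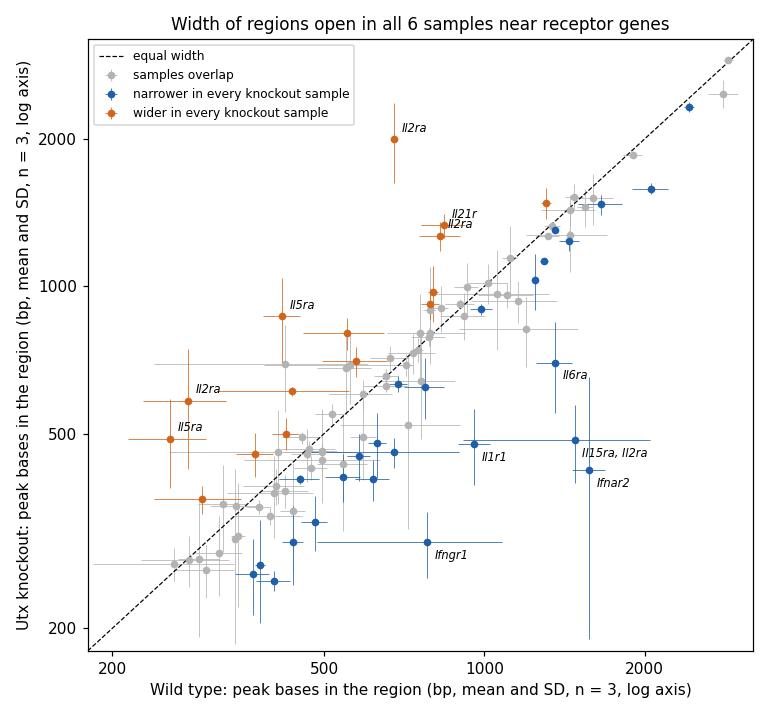
Bases covered by peaks in each of the 103 regions open in all 6 samples near receptor genes, knockout (y axis) against wild type (x axis), as mean and SD of 3 samples on log axes, with the line of equal width. Regions that were wider (orange) or narrower (blue) in every knockout sample lie on both sides, with Il2ra and Il5ra farthest above the line and Ifnar2, Il15ra and Ifngr1 farthest below.

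Over the 103 regions open in all samples, 15 were wider in every knockout sample (14.6%, where 11.9% of 26641 such regions near genes were) and 26 narrower (25.2%, where 27.7% were). Regions both wider in every knockout sample and at least 1.5 times as wide on average numbered 6 (5.83% against 4.53%), of which 3 lay near Il2ra, 2 near Il5ra and 1 near Il21r. Those narrower in every knockout sample and at most 0.6 times as wide numbered 5 (4.85% against 3.85%), near Ifnar2, Il15ra, Ifngr1, Il1r1 and Il6ra. The mean was 815 ± 4.31 bp in wild type and 775 ± 25.2 bp in knockout (SD, n = 3 each), and over all 31159 regions open in all samples it was 776 and 737 bp. The means near receptor genes overlapped without wild-type sample 3 (a difference of -23.5 bp in place of -40.5 bp), and without knockout sample 2 the difference was -68.3 bp.

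Lost regions lay mostly away from the start sites listed in the RefSeq promoter table. Of the 24, 12 lay inside a receptor gene, 4 inside another gene and 8 in neither. Within 1 kb of a listed start site lay 1 lost region, 2 of 11 gained regions and 28 of 103 regions open in all samples. Only 28 of the 35 receptor genes have a listed start site, so regions at the starts of the others, such as Il17ra, are not counted. The same shares over all genes were not computed. The median width of lost regions was 394 bp, against 572 bp in the gained set and 851 bp in the set open in all samples. A region spans the merged peaks of 3 samples in the lost and gained sets and of 6 in the set open in all samples. The last width is therefore not measured on a like basis. Of the 11 gained regions, 9 lay inside a receptor gene. The 28 receptor genes with a promoter window in the RefSeq table had 38 windows, some genes having more than 1. Of these windows 21 (55.3%) had a peak in all 6 samples, where 48.4% of windows of protein-coding genes did. Another 12 (31.6%) had a peak in 0 samples, where 44.8% did. None was partly lost or partly gained, where 0.997% and 0.691% of windows of protein-coding genes were.

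Signalling genes behind these receptors were described in the same way. Near 23 JAK, STAT, SOCS and related genes, 21 of 222 regions (9.46%, where 10.7% near protein-coding genes were) were lost and 6 (2.7%, where 4.05% were) gained, and none of these regions was shared with the receptor genes. Fewer peaks in every knockout sample were found at 12 of the 23, where 27.6% of protein-coding genes had them, and more at 2, where 4.24% did. At least 1 lost region lay near 13 of the 23, where 36.3% of genes had one, and at least 1 gained region near 5, where 13.9% did. These differences from the background were not tested. The shares per gene take no account of the number of regions, and a gene with more regions is likelier to have 1 that differs. The 23 genes had 222 regions, where 16985 protein-coding genes had 62098. Per region, the lost and gained shares lay below those near protein-coding genes. Stat5a, a main mediator of cytokine signals in progenitors, had 10 peaks in each wild-type sample and 5 in each knockout sample. It and the neighbouring Stat3, with 11, 11 and 10 against 6, 6 and 5, shared 4 lost regions. Tyk2, a kinase of interferon and interleukin-12 receptors, lost 3 of 11 regions and had 11, 9 and 10 peaks against 7, 5 and 5. Jak1 had 3 lost and 1 gained of 26 regions, and Stat5b and Socs7 each had 2 lost and 1 gained.

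The pathway genes with more peaks in knockout were Socs2 and Jak2. Socs2, which encodes an inhibitor induced by STAT5, had 4 peaks in each wild-type sample and 8, 11 and 10 in knockout, with 2 regions gained on chromosome 10 (95396206 to 95396976 and 95398495 to 95399001) and 5 partly gained of 11. Jak2, the kinase of the common beta chain and hormone receptors, had 4, 5 and 5 peaks against 6 in each knockout sample, with 1 lost and 1 gained region. Cish, Jak3, Pias1, Ptpn6, Socs3 and Stat6 each had 1 lost region.

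Summed peaks near marker genes of most other cell types differed between the genotypes in the same libraries, where whole peak lists differed by -19.0%. Peaks near 6 erythroid markers numbered 29 to 32 in wild type and 11 to 12 in knockout, near 4 megakaryocyte markers 22 to 24 and 13 to 15, near 5 mast cell and basophil markers 17 to 21 and 9 to 13 (Mcpt4 at 0), near 6 granulocyte and monocyte markers 37 to 40 and 26 to 31 (Ly6g at 0), and near 4 stroma and endothelium markers 14 to 18 and 10 to 12. Dendritic cell markers had 47 to 54 and 46 to 49, which overlap. That sum joined Tcf4, with 18, 22 and 20 peaks against 23, 26 and 24, and Zbtb46, with 14, 13 and 18 against 10, 9 and 8. Flt3 was counted in both the dendritic and the stem list. Single markers did not all follow their sums. In the megakaryocyte list Gp9 had 8, 6 and 9 peaks against 2 in each knockout sample, and Itga2b 5, 6 and 6 in both genotypes. In the granulocyte list Cebpe had 4, 4 and 5 against 4, 5 and 6. The part of cell composition in the losses at Il1r1, Il12rb2 and Il6ra was not tested.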

How the data were processed

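Accessibility was measured by ATAC-seq in 6 samples. The authors deposited 1 peak list per sample with chromosome, start and end positions and no score or read count. The caller was MACS2 and the build mm10, per the submitters' processing notes. How reads were aligned and filtered is not given in the sources used here. Between 750 and 1011 peaks per list span exactly 200 bases if starts count from 1, so starts were read as 1-based.

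Peaks of all samples sharing at least 1 bp were merged into regions. Positions came from RefSeq (GRCm38.p6, the assembly of mm10), with 21900 protein-coding genes. All 35 receptor symbols matched. Strand and start sites came from the RefSeq promoter table, which matched 28 of 35. Il2rb, Il27ra, Il10rb, Csf2rb, Il17ra, Il10ra and Il12rb1 were not matched. Width in a region is the sum of a sample's peak bases in it. All 35 receptor genes were described, with positions for lost and gained regions, and pathway genes were named where they had one. Members and lists were chosen with earlier results of these data known. Region classes were tested on simulated data. Tools were Python 3.11.15, numpy 2.4.6 and pandas 2.3.3. Alternatives left out each sample, or changed list length, overlap, distance or class rule.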

Additional observations from a re-analysis of the deposited data

How the results depend on the processing

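Presence of a peak is the measurement, depth is unknown, and knockout lists were shorter, which limits every count of lost regions. With the widest 50% of peaks there were 10 lost and 4 gained regions near receptor genes (7.41% and 2.96%, against 10.5% and 3.97% near all genes) and the difference in share, knockout minus wild type, was -0.00418 percentage points; with lists of equal length there were 12 lost and 10 gained, 5.74% lost against 7.42% near all genes and 4.78% gained against 6.41%, so that the gained share lay below that of all genes under both settings, and the difference in peaks was 1. Lost and gained numbered 15 and 9 within 5 kb, 43 and 17 within 50 kb, and 31 and 18 when 2 of 3 samples sufficed. Genes with fewer peaks in every knockout sample numbered 12 within 50 kb, and those with more 5 within 5 kb. Leaving out each sample gave 25 to 28 lost and 11 to 16 gained regions, 7 to 10 genes with fewer and 2 to 4 with more peaks (4 without wild-type sample 3 or knockout sample 3), a peak difference of -31 to -19.5, a share difference of 0.0131 to 0.0261 percentage points and a width difference of -68.3 to -23.5 bp. With 1 sample left out, lost shares were 10.5% to 12%, against 11.4% to 14.2% near all genes. Gained shares were then 4.74% to 6.84%, against 4.4% to 5.83%. Lost regions near Il1r1, Il12rb2 and Il17ra, and gained regions near Il2ra, Il21r and Prlr, were present under all 13 alternatives. Same-numbered samples did not deviate together over 75961 regions (r = -0.0221, 0.00554 and 0.0190). A replicate block by number gave the same differences of -25.7 peaks, 0.0203 percentage points and -40.5 bp, each with an exact sign-flip p of 0.25, the smallest that 3 pairs allow. Widths of single regions, and counts of peaks per gene, were recomputed under settings added after seeing the data.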
